A study of Mus musculus with 4 samples.

Results

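The genes described here are 10 factors of the marrow niche stroma, the reticular cells that hold and feed blood stem cells, chosen by name: Cxcl12, Kitl, Lepr, Vcam1, Angpt1, Foxc1, Ebf3, Pdgfra, Pdgfrb and Grem1. They are 10 of the 55401 genes in the tables, and all 10 were among the 18596 genes with a mean level of at least 0.1 FPKM (fragments per kilobase of transcript, scaled to the depth of the library) that were tested. Bone marrow was taken from the tibia of male C57/B6 wild-type mice that had started a high-fat diet (HFD) when 8 weeks old. In obese mice without exercise (Ob, 2 libraries) the diet was the only treatment, and in obese mice with exercise (Ob + Exe, 2 libraries) the animals also ran on a treadmill at moderate intensity for 12 weeks, so the diet was shared by both groups and no lean group was compared. The 2 libraries of a group were treated as separate samples. The p-values set the difference between the groups against the spread within groups, moderated by the spread of other genes of similar level.

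In the marrow, perivascular reticular cells that carry the leptin receptor (LEPR) secrete CXCL12, which holds hematopoietic stem cells in place through the receptor CXCR4, and stem cell factor (the product of Kitl), which keeps them alive through the receptor KIT. The same cells use the transcription factors FOXC1 and EBF3 to keep up their niche function. VCAM1 is the cell-surface partner of the integrin VLA-4 on blood cells, and ANGPT1 signals to the receptor TIE2 on endothelial cells and stem cells. PDGFRA and PDGFRB are receptors for platelet-derived growth factor on mesenchymal cells, and GREM1 is a secreted antagonist of bone morphogenetic proteins.

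The 4 libraries held between 44310000 and 53040000 read equivalents, the number of 150-base reads that would give the deposited coverage. Levels below are FPKM summed over the transcripts of a gene and scaled by median of ratios, with factors between 0.9446 and 1.042. The labels name mesenchymal stem cells and fibroblasts as the cell type, but neutrophil genes led these libraries: S100a8, a neutrophil calcium-binding protein, had a level of 20820 and 11897 FPKM in Ob and of 16110 and 35870 FPKM in Ob + Exe. Col1a1, the type I collagen chain that fibroblasts and osteoblasts make in bulk, had a level of 3.12 and 3.02 FPKM in Ob and of 1.17 and 1.85 FPKM in Ob + Exe. The RNA is therefore described as whole marrow.

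A gene was called when the unadjusted limma p was under 0.05 and the log2 fold change of Ob + Exe against Ob, on the scale of log2(FPKM + 0.1), was beyond 1 in size. None of the 10 members was called, where 3.74% of all genes tested were called (2.74% lower and 1.0% higher in Ob + Exe). After Benjamini-Hochberg adjustment over all genes tested, 0.00% had an adjusted p under 0.05 by limma. Of the 18596 genes tested, 940 had an unadjusted p under 0.05, where a share of 0.05 is expected if no gene differs. The number of genes called was 696 with all libraries, 1229 without Ob + Exe replicate 1 and 1851 without Ob + Exe replicate 2, and no member was called in either case. The log2 fold change was below 0 for 5 members and above 0 for 5, with a median of 0.056, beside a median of -0.019 over all genes tested. The groups did not overlap for 4 members, beside 32.6% of all genes tested. Angpt1 and Foxc1 were lower in both Ob + Exe libraries (18.3% of all genes tested), and Vcam1 and Pdgfra were higher in both (14.3%). With 2 libraries against 2, an exact permutation test cannot give a two-sided p below 0.333. In bulk marrow, fewer cells of a type and less RNA per cell cannot be told apart.

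**Figure D1:**
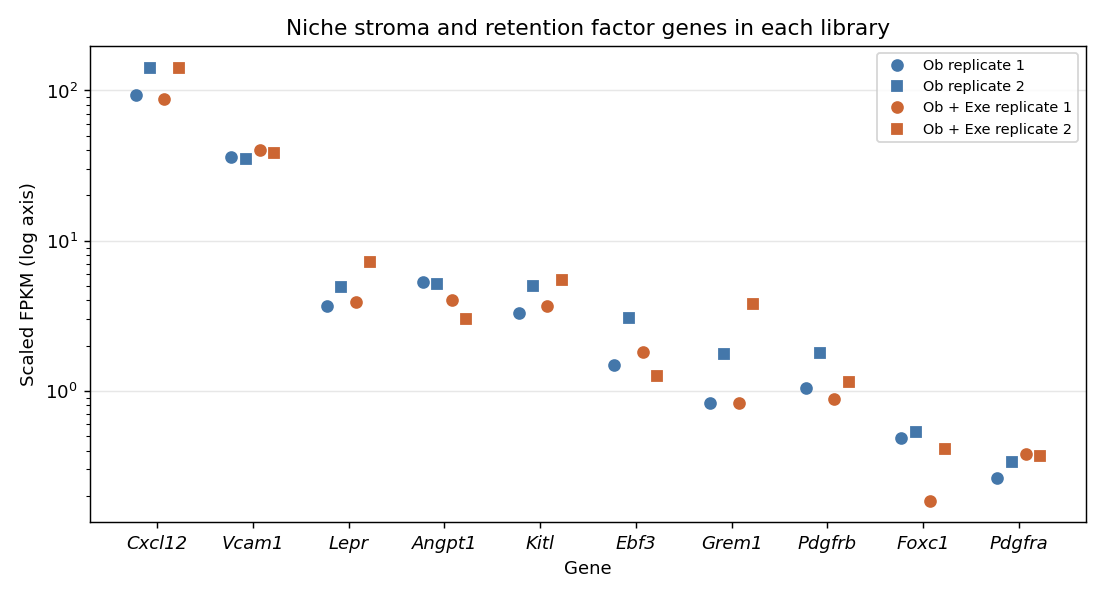
Scaled FPKM of each member (log axis) in the 4 libraries, with genes ordered by their mean; blue is Ob, orange is Ob + Exe, circles are replicate 1 and squares replicate 2. Cxcl12 and Vcam1 stand above the rest, and in Cxcl12, Kitl, Lepr, Foxc1, Pdgfrb and Grem1 the square lies above the circle in both groups.

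The members spanned a wide range of levels, and FPKM, being per length, allows them to be ordered. Cxcl12 was the highest with a mean level of 116 ± 29.7 FPKM (SD over 4 libraries), followed by Vcam1 with 37.4 ± 2.33 FPKM, and their ranges did not overlap. Lepr, Angpt1 and Kitl followed with mean levels of 4.93 ± 1.61, 4.36 ± 1.07 and 4.35 ± 1.03 FPKM, and these neighbours did not differ beyond their spread. Ebf3, Grem1 and Pdgfrb lay at 1.90 ± 0.800, 1.81 ± 1.40 and 1.22 ± 0.404 FPKM and could likewise not be ordered. Foxc1 (0.403 ± 0.153 FPKM) and Pdgfra (0.336 ± 0.0523 FPKM) were the lowest. Cxcl12 alone made up 64.0%, 71.1%, 61.2% and 69.9% of the summed level of the members in Ob replicates 1 and 2 and Ob + Exe replicates 1 and 2.

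The secreted factors are described first. Cxcl12 (ENSMUSG00000061353.11, GRCm38 chr6:117168535-117181367, plus strand) encodes the retention chemokine. Its level was 92.7 and 142 FPKM in Ob and 88.4 and 142 FPKM in Ob + Exe. Each group had 1 library near 90 and 1 at 142, so the groups overlapped fully. Its log2 fold change was -0.033 ± 0.330 (SE), with a 95% interval of -0.85 to 0.78 (limma adjusted p = 0.993). The read equivalents behind these levels, 14468 to 25617, were the highest of the members, and the libraries of a group differed 1.53-fold in Ob and 1.61-fold in Ob + Exe. Without Ob replicate 2 the log2 fold change was 0.26, and without Ob + Exe replicate 2 it was -0.39.

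Cxcl12 transcripts differ at the end of the coding region, which sets the tail of the chemokine, and the sequences of the 3 coding forms are shown because the shares of the alpha and beta forms did not overlap between the groups. Each line begins with the last 30 coding bases that all 3 forms share, in lower case, followed in capitals by the bases of that form up to and including its stop codon. The sequences are from the GENCODE vM21 transcripts on GRCm38, and the lines begin at chr6:117173549.
Cxcl12 alpha: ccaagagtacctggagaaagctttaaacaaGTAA
Cxcl12 beta: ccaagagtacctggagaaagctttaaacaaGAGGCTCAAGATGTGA
Cxcl12 gamma: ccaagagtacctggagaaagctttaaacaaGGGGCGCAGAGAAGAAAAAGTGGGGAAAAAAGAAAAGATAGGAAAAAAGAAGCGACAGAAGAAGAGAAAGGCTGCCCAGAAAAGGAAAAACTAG
The alpha form (ENSMUST00000112866.7, 89 codons) ends at once, the beta form (ENSMUST00000112871.7, 93 codons) adds 4 codons, and the gamma form (ENSMUST00000073043.4, 119 codons) adds 30 codons, many of them for basic residues. The beta form held 53.2% and 55.4% of the gene's FPKM in Ob, against 65.3% and 61.0% in Ob + Exe. The alpha form held 41.8% and 39.3% in Ob, against 32.0% and 32.4% in Ob + Exe. The difference of the group means, Ob + Exe minus Ob, was 8.88 percentage points for the beta form and -8.31 percentage points for the alpha form, and neither share overlapped between the groups. Together these forms held nearly all of the gene's FPKM in every library, so the 2 differences are largely the same observation. Among 5707 genes with a mean level of at least 1 FPKM and at least 2 transcripts of 10% or more, the share of the leading transcript did not overlap between the groups in 35.4%, so a separation of this kind was common. The gamma form, named after its values were seen, held 2.66% and 2.67% in Ob, against 1.87% and 3.33% in Ob + Exe, and overlapped. The annotated alpha and beta transcripts also differ in length, 1878 and 3132 bases. Reads specific to each form were not counted, so the shares do not measure how often each form was used.

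Kitl (ENSMUSG00000019966.18, GRCm38 chr10:100015630-100100416, plus strand) encodes stem cell factor. Its level was 3.28 and 4.96 FPKM in Ob and 3.70 and 5.45 FPKM in Ob + Exe. The groups overlapped, with the higher library of Ob above the lower library of Ob + Exe. Between the groups, the log2 fold change was 0.15 ± 0.369 (SE), with a 95% interval of -0.76 to 1.06 (limma adjusted p = 0.982), and it turned to -0.15 without Ob replicate 1 and to -0.14 without Ob + Exe replicate 2. Stem cell factor is made in a form that can be cut from the membrane and a form that mostly stays there, and the difference is a coding stretch that holds the main cleavage site. That stretch (chr10:100080857-100080940, 84 bases, 28 codons) is given in capitals with 15 coding bases on each side, above the junction without it.
Kitl with stretch: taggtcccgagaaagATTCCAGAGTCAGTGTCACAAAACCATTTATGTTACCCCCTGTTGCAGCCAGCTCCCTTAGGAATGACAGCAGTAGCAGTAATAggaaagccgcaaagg
Kitl without stretch: taggtcccgagaaagggaaagccgcaaagg
The transcript with the stretch (ENSMUST00000105283.8) held 96.0% and 99.9% of the gene's FPKM in Ob, against 99.9% and 94.3% in Ob + Exe. The transcript without it (ENSMUST00000020129.7), named after its values were seen, held 3.62% in Ob replicate 1 and 5.57% in Ob + Exe replicate 2 and was listed at 0 in the remaining 2 libraries. Its values rested on 10 and 21 read equivalents. The 2 annotated transcripts also differ in length, 5648 bases with the stretch and 1260 without it. Reads across the stretch were not counted, so these shares do not measure how often the stretch was used. The transcript with the stretch was the main one assigned in every library, and neither group stood apart.

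Angpt1 (ENSMUSG00000022309.9, GRCm38 chr15:42424723-42676977, minus strand) encodes the TIE2 ligand angiopoietin 1. Its level was 5.28 and 5.16 FPKM in Ob and 4.0 and 3.01 FPKM in Ob + Exe, from 1526, 1472, 1005 and 703 read equivalents. Neither Ob + Exe library reached the level of either Ob library, and the means differed by -32.8%. On the log2 scale, the fold change was -0.57 ± 0.307 (SE), with a 95% interval of -1.33 to 0.18 (limma adjusted p = 0.959), so the difference did not pass the test. Leaving out Ob + Exe replicate 1 gave -0.78, and leaving out Ob + Exe replicate 2 gave -0.39. Megakaryocytes also make angiopoietin 1, and 11 of the 12 genes of a megakaryocyte marker list had a log2 fold change below 0 and 4 were called lower. Of all 18596 genes tested, 9606 lay below 0, and 2.74% were called lower. The summed level of the megakaryocyte list was 544 and 406 FPKM in Ob and 438 and 179 FPKM in Ob + Exe. These sums overlapped between the groups, and none of the markers was at 0. The summed level of a list of hematopoietic stem and progenitor markers was 45.6 and 40.5 FPKM in Ob and 44.7 and 32.1 FPKM in Ob + Exe, with 0 of its 9 tested genes called. Of these 9 genes, 7 had a log2 fold change below 0 and 2 above, with a median of -0.45. The part of these cells in the Angpt1 values was not tested.

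Grem1 (ENSMUSG00000074934.3, GRCm38 chr2:113746164-113758646, minus strand) encodes the bone morphogenetic protein antagonist. Its level was 0.826 and 1.77 FPKM in Ob and 0.831 and 3.80 FPKM in Ob + Exe. A single library, Ob + Exe replicate 2, was high, and the other Ob + Exe library matched the lower Ob library. The log2 fold change was 0.53 ± 0.785 (SE), with a 95% interval of -1.40 to 2.47 (limma adjusted p = 0.975), and without Ob + Exe replicate 2 it was -0.51. This was the widest spread within a group among the members, 4.58-fold between the Ob + Exe libraries.

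Of the surface molecules, Lepr (ENSMUSG00000057722.17, GRCm38 chr4:101717404-101815352, plus strand) is the leptin receptor that marks the niche cells. Its level was 3.68 and 4.89 FPKM in Ob and 3.93 and 7.21 FPKM in Ob + Exe. The groups overlapped, and Ob + Exe replicate 2 was the highest library. Its log2 fold change was 0.32 ± 0.391 (SE), with a 95% interval of -0.65 to 1.29 (limma adjusted p = 0.970), and it was -0.12 without Ob + Exe replicate 2. Leptin receptor forms share the extracellular part and differ in the tail inside the cell, and only the long form carries the full signalling tail. The last 30 shared coding bases are in lower case (from chr4:101792041) and the bases of each form in capitals, whole for the short forms and the first 90 for the long form.
Lepr short: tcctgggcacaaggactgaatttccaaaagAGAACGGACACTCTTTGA
Lepr second short: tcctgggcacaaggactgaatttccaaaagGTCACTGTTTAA
Lepr long: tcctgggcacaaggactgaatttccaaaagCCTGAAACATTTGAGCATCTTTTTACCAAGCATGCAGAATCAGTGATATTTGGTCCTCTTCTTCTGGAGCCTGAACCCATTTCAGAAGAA
The short form (ENSMUST00000106921.8, 894 codons, 5 of its own) held 89.0% and 97.7% of the gene's FPKM in Ob, against 100% and 92.0% in Ob + Exe. The long form (ENSMUST00000037552.9, 1162 codons, 273 of its own), named after its values were seen, had a share of 2.72% and 2.33% in Ob and was listed at 0 in both Ob + Exe libraries. Its Ob values rested on 28 and 32 read equivalents. A transcript listed at 0 can be a failed assignment between overlapping transcripts. The other short form (ENSMUST00000102777.9, 892 codons) was likewise named after its values were seen and was above 0 only in Ob replicate 1 (5.51%) and Ob + Exe replicate 2 (7.97%).

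Vcam1 (ENSMUSG00000027962.14, GRCm38 chr3:116109949-116129688, minus strand) encodes the adhesion molecule for VLA-4. Its level was 35.8 and 35.2 FPKM in Ob and 40.3 and 38.4 FPKM in Ob + Exe. Both Ob + Exe libraries were above both Ob libraries, and the libraries within a group lay close together. Between the groups, the log2 fold change was 0.15 ± 0.192 (SE), with a 95% interval of -0.33 to 0.62 (limma adjusted p = 0.974), the narrowest of the members. Only Vcam1 and Cxcl12 among the 10 members had an interval that lay within 1 on either side of 0, so for the remaining 8 a 2-fold change in at least 1 direction lay inside the interval. Marrow macrophages also carry Vcam1, and the summed level of 11 macrophage markers was 143 and 154 FPKM in Ob and 156 and 160 FPKM in Ob + Exe, with 0 of the 11 called. Slc40a1, the iron exporter, was the highest of these markers and overlapped between the groups, with a level of 64 and 53.9 FPKM in Ob and 53.2 and 78.1 FPKM in Ob + Exe, as did the complement gene C1qb, with 18.8 and 23.9 FPKM in Ob and 22.4 and 19.9 FPKM in Ob + Exe. Over the list, 6 log2 fold changes lay below 0 and 5 above, with a median of -0.0061. In both Ob + Exe libraries 4 markers were lower and 1 was higher, beside 18.3% and 14.3% of all genes tested. The 4 lower markers were Cd163, Mertk, C1qa and Timd4 and the higher was Adgre1, all named after their values were seen. The part of macrophages in the Vcam1 values was not tested.

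The growth factor receptors were low. Pdgfra (ENSMUSG00000029231.15, GRCm38 chr5:75152292-75198215, plus strand) had a level of 0.264 and 0.334 FPKM in Ob and 0.381 and 0.367 FPKM in Ob + Exe. Both Ob + Exe libraries were higher, on 123 to 154 read equivalents a library. On the log2 scale, the fold change was 0.26 ± 0.626 (SE), with a 95% interval of -1.29 to 1.80 (limma adjusted p = 0.982). Pdgfrb (ENSMUSG00000024620.11, GRCm38 chr18:61045150-61085061, plus strand) had a level of 1.05 and 1.80 FPKM in Ob and 0.880 and 1.15 FPKM in Ob + Exe. The groups overlapped, since the higher Ob + Exe library lay above the lower Ob library. The log2 fold change was -0.41 ± 0.490 (SE), with a 95% interval of -1.62 to 0.79 (limma adjusted p = 0.970), and it was -0.79 without Ob replicate 1 and -0.059 without Ob replicate 2.

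Of the transcription factors, Foxc1 (ENSMUSG00000050295.4, GRCm38 chr13:31806633-31812476, plus strand) is a single-exon gene. Its level was 0.485 and 0.532 FPKM in Ob and 0.186 and 0.411 FPKM in Ob + Exe, from 194, 208, 64 and 132 read equivalents. Both Ob + Exe libraries were lower, and they differed from each other 2.21-fold. Its log2 fold change was -0.67 ± 0.649 (SE), with a 95% interval of -2.27 to 0.93 (limma adjusted p = 0.959), and it was -0.26 without Ob + Exe replicate 1 and -1.10 without Ob + Exe replicate 2.

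Ebf3 (ENSMUSG00000010476.14, GRCm38 chr7:137193673-137314445, minus strand) is an early B-cell factor of the reticular cells. Its level was 1.48 and 3.05 FPKM in Ob and 1.81 and 1.26 FPKM in Ob + Exe. The groups overlapped. Between the groups, the log2 fold change was -0.47 ± 0.496 (SE), with a 95% interval of -1.69 to 0.76 (limma adjusted p = 0.965), and it was 0.022 without Ob replicate 2. Its main transcripts differ by 108 coding bases (chr7:137198582-137198689, 36 codons), shown in capitals because 1 library was assigned to the other form.
Ebf3 with stretch: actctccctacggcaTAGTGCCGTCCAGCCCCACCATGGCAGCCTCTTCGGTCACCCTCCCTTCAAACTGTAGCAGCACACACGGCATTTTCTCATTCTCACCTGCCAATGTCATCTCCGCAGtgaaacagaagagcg
Ebf3 without stretch: actctccctacggcatgaaacagaagagcg
The transcript without the stretch (ENSMUST00000033378.12) held 92.1% and 99.2% of the gene's FPKM in Ob, against 98.6% in Ob + Exe replicate 1, and was listed at 0 in Ob + Exe replicate 2. There the transcript with the stretch (ENSMUST00000169486.8) took 100% on 346 read equivalents, while in the 3 remaining libraries it held 5.77%, 0.769% and 1.45%. The Ob + Exe libraries were thus at opposite ends, and no difference between the groups can be read from these shares.

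**Figure D2:**
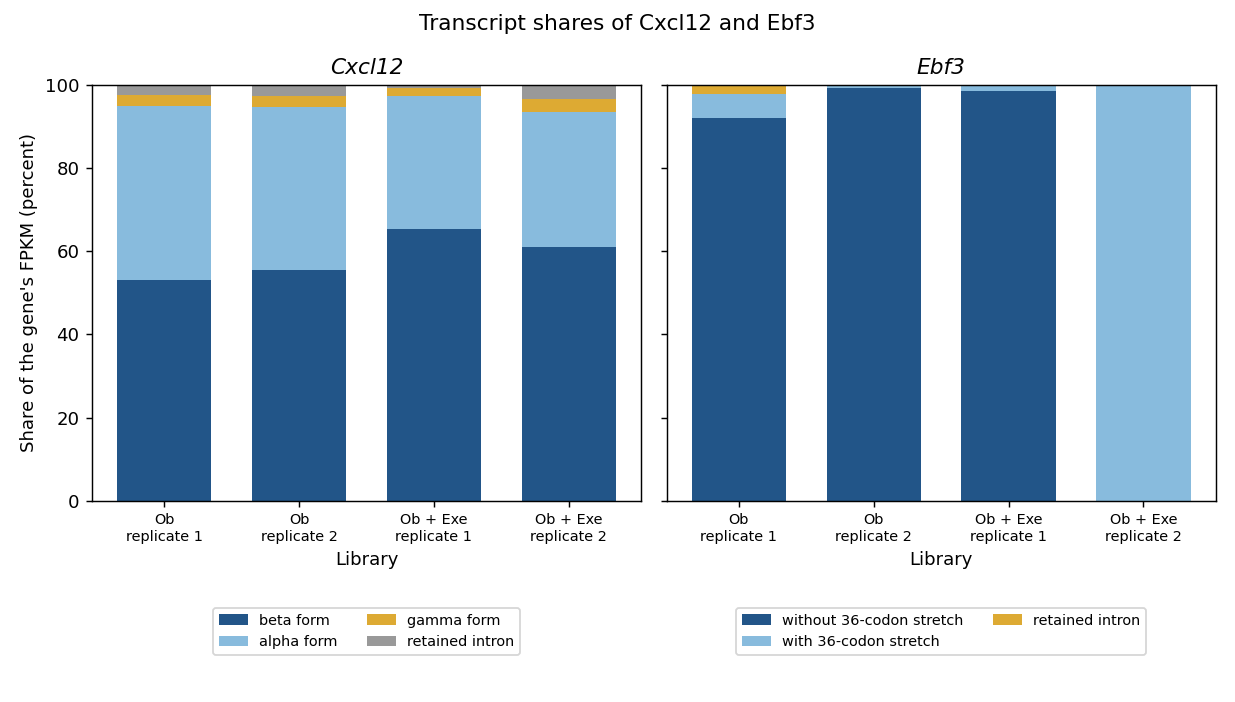
Share of each transcript in the gene's FPKM (percent, stacked bars from 0) for Cxcl12 and Ebf3 in the 4 libraries. For Cxcl12, the beta form is 53.2% and 55.4% in Ob, against 65.3% and 61.0% in Ob + Exe, while for Ebf3 a single library, Ob + Exe replicate 2, is assigned wholly to the transcript with the 36-codon stretch.

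**Figure D3:**
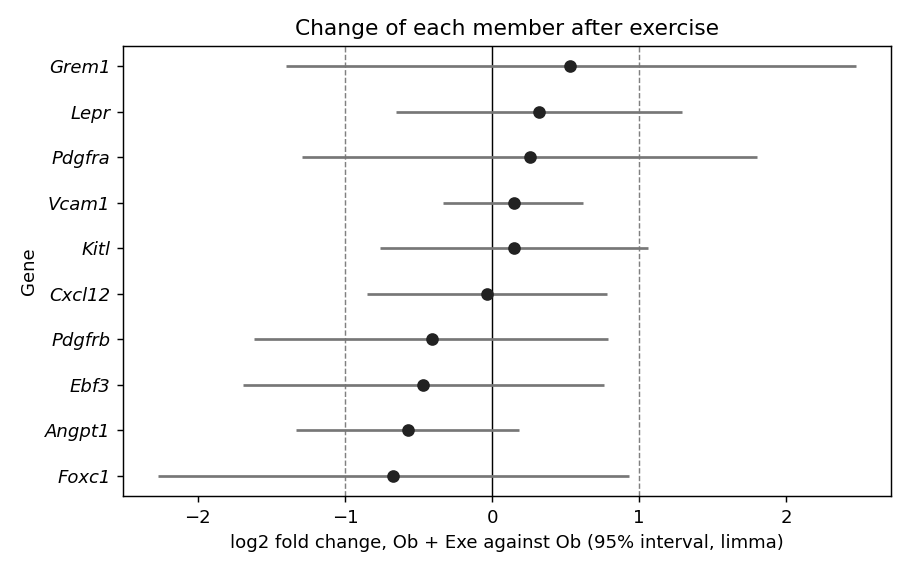
log2 fold change of Ob + Exe against Ob for each member (point) with its 95% limma interval (line); the solid line marks 0 and the dashed lines -1 and 1. Every interval crosses 0, and those of Cxcl12 and Vcam1 lie between the dashed lines.

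A set of 6 members, Cxcl12, Kitl, Lepr, Foxc1, Pdgfrb and Grem1, were higher in the library numbered 2 than in that numbered 1 in both groups, beside 19.4% of all genes tested. The summed level of the 10 members was 145 and 199 FPKM in Ob and 144 and 203 FPKM in Ob + Exe, with 1 lower and 1 higher library in each group. The genes nearest to Cxcl12 in pattern over the 4 libraries, of 95 candidates, were Kitl, the cadherin gene Cdh11 and Esm1, with root mean square log2 distances of 0.104, 0.152 and 0.175. A ratio to Cxcl12 of the same library was therefore added after the data were seen. Kitl was 3.54% and 3.50% of the Cxcl12 level in Ob, against 4.18% and 3.84% in Ob + Exe. Lepr was 3.97% and 3.45% in Ob, against 4.45% and 5.07% in Ob + Exe. On this scale both were higher in the 2 Ob + Exe libraries than in the 2 Ob libraries. Foxc1 was 0.523% and 0.375% of the Cxcl12 level in Ob, against 0.211% and 0.289% in Ob + Exe. Pdgfrb was 1.13% and 1.27% in Ob, against 0.996% and 0.812% in Ob + Exe. Both were lower in Ob + Exe, and each of the 4 ratios gave an exact permutation p of 0.333, the smallest possible, with the remaining 5 ratios overlapping. Over all other genes tested, the ratio to Cxcl12 did not overlap between the groups in 17.6% (11.6% lower and 6.02% higher in Ob + Exe). Since Cxcl12 was taken as the reference after its pattern had been seen, nothing is read from the 4 ratios beyond their values.

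**Figure D4:**
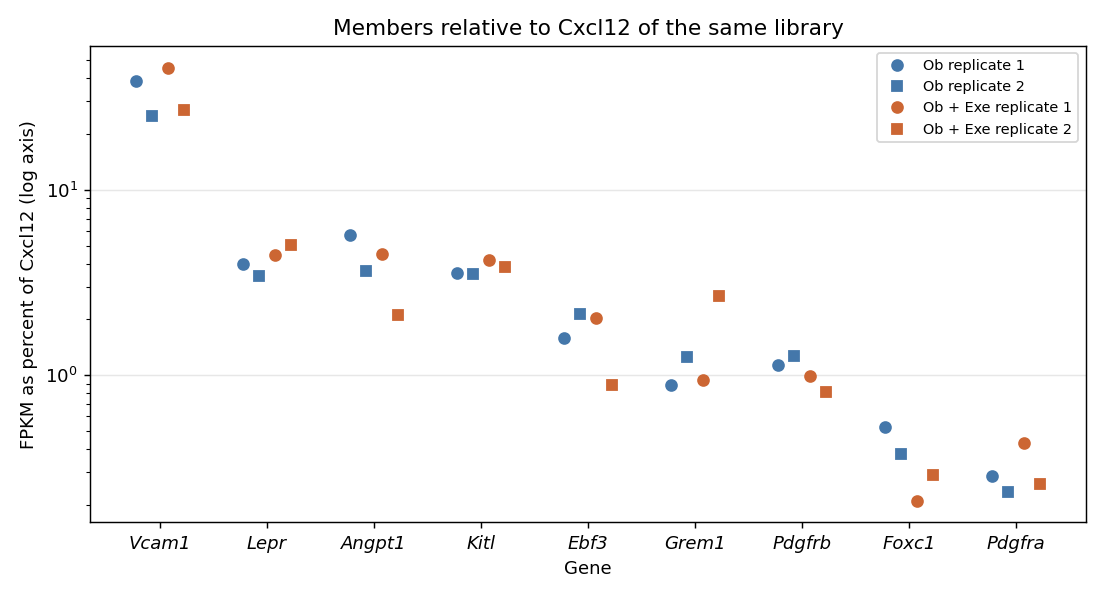
Level of each of the other 9 members as a percent of Cxcl12 in the same library (log axis), coloured and shaped by group and replicate. The 2 Ob + Exe points lie above both Ob points for Kitl and Lepr and below them for Foxc1 and Pdgfrb.

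The signalling partners of the members comprised 26 genes, of which 22 were tested and 0 called, with 10 log2 fold changes below 0 and 12 above. Their median was 0.017, near the -0.019 of all genes tested. Cxcr4, the receptor for CXCL12, had a level of 159 and 153 FPKM in Ob and 134 and 161 FPKM in Ob + Exe. Mmp9, a protease that can release stem cell factor, had a level of 176 and 79.7 FPKM in Ob and 106 and 199 FPKM in Ob + Exe. Both overlapped between the groups. The receptors Kit and Tek and the integrin gene Itga4 are given for their role as partners and were named after their values were seen. Kit had a level of 12.5 and 9.91 FPKM in Ob and 10.3 and 9.51 FPKM in Ob + Exe, Tek 0.730 and 0.613 FPKM and then 0.437 and 0.554 FPKM, and Itga4 29.5 and 23.1 FPKM and then 12.3 and 26.5 FPKM. Tek was lower in both Ob + Exe libraries, with a log2 fold change of -0.38 ± 0.545 (SE; limma adjusted p = 0.975). Lep, the ligand of LEPR, was listed at 0 in every library.

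Among 32 companion genes of the marrow stroma, 29 were tested, 20 lay above 0 and 9 below, and the median log2 fold change was 0.18. Only Col1a1 was called, with a log2 fold change of -1.01 ± 0.397 (SE; limma adjusted p = 0.959), and the call held without Ob + Exe replicate 2 but not without any other library. Igfbp4, an insulin-like growth factor binding protein, had a level of 28.4 and 26.3 FPKM in Ob and 21.1 and 25.3 FPKM in Ob + Exe. Bgn, the matrix proteoglycan biglycan, had a level of 13.3 and 19.2 FPKM in Ob and 19.6 and 27.4 FPKM in Ob + Exe. Neither passed the test.

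Markers of other marrow cell types were followed beside these values. All 10 endothelial genes had a log2 fold change below 0, with 0 called, where 9606 of the 18596 genes tested lay below 0. The endothelial values ranged from -1.30 ± 0.733 (SE) for Flt4 to -0.073 for Stab2, both named after their values were seen. Flt4 was low, with 0.518 and 0.508 FPKM in Ob and 0.276 and 0.0647 FPKM in Ob + Exe. Its lowest value rested on 22 read equivalents. The summed level of the endothelial list was 28.8 and 31.0 FPKM in Ob and 26.9 and 16 FPKM in Ob + Exe. The highest were Pecam1, an adhesion molecule of endothelial junctions, with 12.1 and 11.4 FPKM in Ob and 8.01 and 8.1 FPKM in Ob + Exe, and Vwf, the von Willebrand factor gene, with 7.23 and 10.3 FPKM in Ob and 9.04 and 2.74 FPKM in Ob + Exe. Vwf is also on the megakaryocyte list and overlapped between the groups. Of the 8 osteoblast genes tested, Col1a1 and Bglap2 were called lower, and the summed level was 18.5 and 26.5 FPKM in Ob and 15 and 15.8 FPKM in Ob + Exe. Both osteoblast calls were lost without Ob replicate 1, Ob replicate 2 or Ob + Exe replicate 1. The Bglap2 call was also lost with a pseudocount of 0.01, at a mean FPKM of at least 1, with no filter, with voom and without the intensity trend. Bglap2 had a level of 1.12 and 3.39 FPKM in Ob and 0 and 0.721 FPKM in Ob + Exe, from 36, 107, 0 and 19 read equivalents. Its log2 fold change of -2.85 became -4.52 with a pseudocount of 0.01 and -1.22 with a pseudocount of 1. Bglap, named after its values were seen, was not called and overlapped between the groups. The highest osteoblast genes, Runx2 and Ibsp, were not called, with log2 fold changes of -0.23 and -0.27. The megakaryocyte genes called lower were Tubb1, Gp5, Gp1ba and Gp1bb, with log2 fold changes of -1.5, -1.1, -1.99 and -1.78, and the number called was 0, 1, 10 and 2 when Ob replicates 1 and 2 and Ob + Exe replicates 1 and 2 were left out in turn. The highest megakaryocyte genes, Ppbp and Pf4, had log2 fold changes of -0.95 and -0.60 and were not called. Gata2 and Kit, the highest stem and progenitor genes, had log2 fold changes of 0.35 and -0.17 and were not called. Acta1, the actin of skeletal muscle, was called higher with a log2 fold change of 1.55, and Mylpf, a muscle myosin light chain and the highest gene of the list beside it, had 0.38 and was not called. The muscle list summed to 12.2 and 7.68 FPKM in Ob and 16.3 and 16.4 FPKM in Ob + Exe, and no muscle gene was called without Ob replicate 2 or either Ob + Exe library. Neutrophil genes summed to 49003 and 27873 FPKM in Ob and 36225 and 65904 FPKM in Ob + Exe. S100a9, the partner of S100a8, had a log2 fold change of 0.19 and was not called. The adipocyte list had 0 called genes. Of its 4 tested genes, 2 had a log2 fold change below 0 and 2 above, with a median of 0.034. The summed level of the list was 65.2 and 64.4 FPKM in Ob and 109 and 87.5 FPKM in Ob + Exe. Most of that sum was Fabp4, a fatty acid binding protein, with 59.2 and 57 FPKM in Ob and 103 and 78.1 FPKM in Ob + Exe, higher in both Ob + Exe libraries with a log2 fold change of 0.63 ± 0.222 (SE; limma adjusted p = 0.959). Adipoq, the adiponectin gene, had a level of 4.03 and 5.9 FPKM in Ob and 4.07 and 8.7 FPKM in Ob + Exe, and overlapped. Plin1, which coats the lipid droplets of adipocytes and was named after its values were seen, was at 0.0551 FPKM in Ob replicate 1 and listed at 0 in the other 3 libraries. The pericyte and smooth muscle list had 0 called genes, and its highest genes, Rgs5 and Acta2, had log2 fold changes of 0.40 and 0.77. Of its 4 tested genes, 2 lay below 0 and 2 above, with a median of -0.033. The part of any of these cell types in the members' values was not tested.

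**Figure D5:**
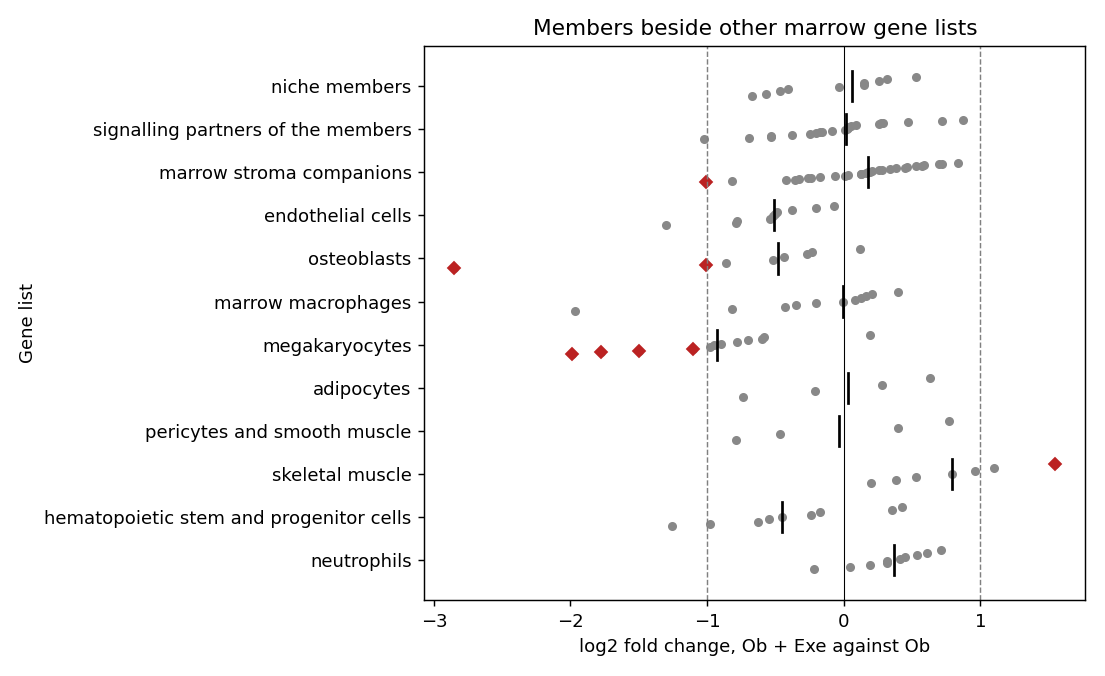
log2 fold change of Ob + Exe against Ob for every tested gene of the members and of 11 other marrow gene lists (points; red diamonds are called genes, black bars are medians). The members spread on both sides of 0 with none called, while the megakaryocyte list has 4 called genes below -1.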

How the data were processed

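The authors trimmed reads with fastp after FastQC, removed ribosomal RNA reads, aligned with HISAT2 to GRCm38, and deposited StringTie transcript tables on GENCODE vM25. The authors also list SAMtools, and DESeq2 for their own comparison. The deposited tables hold coverage and FPKM per transcript, not counts, for 4 libraries (142604 transcripts). FPKM was summed per gene, scaled by median of ratios over the genes tested, and tested as log2(FPKM + 0.1) with limma 3.58.1 (R 4.3.3, intensity trend; residual df 2, prior df 3.79). Fold changes on this scale understate the change of low genes. Read equivalents came from coverage. The fit was tested on simulated data. Sequences came from GENCODE vM21, whose entries matched all 44 transcripts of the members by ID and position. Of other lists, called genes and the 2 highest were named, others only where stated; of transcripts, those with at least 10% of the gene; and the 3 genes nearest to Cxcl12. The members and lists were chosen with earlier results of these data known. StringTie's strand setting is not given in the sources used here; Vcam1, Angpt1, Ebf3 and Pdgfra overlap minor genes, mostly on the opposite strand. Alternatives were scaling, pseudocount, filter, voom, trend, replicate number and leaving out each library.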

Additional observations from a re-analysis of the deposited data

How the results depend on the processing

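No member was called under any alternative run, and their adjusted p ranged from 0.428 to 1. Scaling, pseudocount, filter, voom and Cxcl12-ratio alternatives kept the direction of every member in all 77 values; the trend, block and crossed-pairing fits leave the fold change as it is by construction. Leaving out each library in turn, with the lone library of that group assumed to vary like the other group, changed the sign of 5 members: the log2 fold change ranged from -0.39 to 0.30 for Cxcl12, from -0.15 to 0.43 for Kitl, from -0.12 to 0.74 for Lepr, from -0.97 to 0.022 for Ebf3 and from -0.51 to 1.56 for Grem1. The other members kept their sign, from -0.78 to -0.39 for Angpt1, -1.10 to -0.26 for Foxc1, -0.79 to -0.059 for Pdgfrb, 0.12 to 0.37 for Pdgfra and 0.10 to 0.17 for Vcam1. The 696 genes called became 222 with a pseudocount of 1, 267 at a mean FPKM of at least 1, 455 with voom on read equivalents and 1060 without the intensity trend, and 599 to 1851 when 1 library was left out; the cause was not tested. A block for the replicate number gave 742 called genes and the crossed pairing 803; the crossed pairing was added after the data were seen since same-numbered deviations correlated at -0.106. The labels do not say that the numbers pair the libraries. Of 22 counts of called list genes, 18 were 0; for the other 4, 29 of 56 values under an alternative stayed within 1.5 times. Some of the counts at 0 rose above 0 under an alternative. With voom, 1 gene each of the endothelial, macrophage and stem and progenitor lists was called lower. The Col1a1 call was also lost under quantile normalization, a pseudocount of 1, no filter and the block. The lowest Foxc1 value rested on 64 read equivalents.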
